A study of Rattus norvegicus with 6 samples.

Results

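The nuclear-encoded subunits of the respiratory chain and ATP synthase were examined in rat bone marrow mesenchymal stem cells (MSCs, marrow stroma that is able to turn into bone, cartilage or fat). Members were the protein-coding rows outside the mitochondrial genome whose names begin as Nduf a, b, c, s or v, Cox4 to Cox8, Uqcr, Atp5, Cyc1 or Sdh a to d, and 88 of the 33589 rows of the gene table met that rule. Of these, 36 belonged to complex I, 4 to complex II, 10 to complex III, 22 to complex IV and 16 to complex V. Ndufa4 and Ndufa4l2 were counted with complex IV, where the Ndufa4 protein is now placed, although their names come from complex I. The rule itself reads names, biotype and chromosome, while the set was chosen with earlier results of these data known.

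The cells had been kept for 48 h in a hydrogel that the labels call SA, either soft (2 kPa) or stiff (18 kPa), with 3 libraries of polyA RNA per group here. The series' design text says quadruplicate, and every test below rests on these 3 per group. The labels name no genetic change, drug, strain or age, and the culture medium was the same in both groups. The labels do not say whether libraries of a group came from separate cultures or animals, so p-values cover only the spread among these samples, and that spread may be technical. Levels are FPKM, a read density per unit of gene length and of library size, so genes may be compared roughly with each other. Rows with copies or overlapping neighbours are uncertain, as the treatment of multiply mapped reads is not stated. Because the libraries hold bulk RNA, fewer cells of a type and less RNA per cell cannot be told apart.

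The respiratory chain passes electrons from NADH (complex I) and succinate (complex II) through coenzyme Q to complex III, on through cytochrome c to complex IV, and to oxygen. Complexes I, III and IV pump protons across the inner mitochondrial membrane, and complex V, the ATP synthase, uses the gradient to make ATP. Most subunits are encoded in the nucleus and imported, while a small set, parts of the core of complexes I, III, IV and V, is made from mitochondrial DNA. In undifferentiated MSCs glycolysis is a large source of ATP, and respiration is known to increase as these cells differentiate.

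Recovered reads came to between 14966354 and 16711527 per library. FPKM summed to between 452787 and 457306 in the soft libraries and to between 467372 and 478304 in the stiff ones. The median log2 fold change (stiff minus soft) of all tested genes was 0.0013 as deposited and -0.042 at equal FPKM sums. Values at equal FPKM sums are therefore given as an alternative scale and not as a correction. Reads of mitochondrial genes made up 2.15% in soft replicate 1 and from 2.85% to 3.33% elsewhere. All 11 MSC markers fixed for the check were above the level filter, and their summed level was between 4686 and 6107 FPKM in soft gel and between 5089 and 6270 FPKM in stiff gel, most of it from Col1a1 and Col1a2. Leukocyte markers were present as well. All 12 of them passed the level filter, and they summed to between 437.9 and 442.7 FPKM in soft gel and between 385.7 and 415.1 FPKM in stiff gel. Of these, Cd68 (log2 fold change -0.53, limma adjusted p = 0.025) and Cd53 (-0.56, adjusted p = 0.027) fell in stiff gel and Adgre1 (0.30, adjusted p = 0.040) rose. The calls of Cd68 and Cd53 were lost in 5 of the 6 fits that left out 1 library, and that of Adgre1 in all 6, with limma adjusted p up to 0.163. At equal FPKM sums Adgre1 was not called either (adjusted p = 0.075). The part of these cells in the values below was not tested. Endothelial markers summed to at most 1.27 FPKM and erythroid markers to at most 0.957 FPKM in any library. Striated muscle markers summed to at most 9.04 FPKM, led by the troponin gene Tnnt3 and by Actn3, with Mb at 0 in every library.

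Promoters were looked at first because the nuclear subunits are known to share binding sites of NRF1, of the ETS factor GABP and of YY1. RefSeq windows of the GRCr8 assembly, from 250 bases before to 50 bases after the annotated start, were found for 74 of the 88 rows. The letters searched on both strands were GCGCATGC for NRF1, CCGGAAG for the ETS core and AAGATGGC for YY1. The NRF1 letters stood in 12.16% of the member windows (9 of 74) and in 3.112% of the 21851 windows of all protein-coding genes. The ETS letters stood in 28.38% (21) and 10.74%, and the YY1 letters in 20.27% (15) and 3.675%. In all, 34 members held at least 1 of the 3 motifs and 40 held none, which says only that these letters are not in those windows. Of the 15 YY1 matches, 13 began within 60 bases of the start and 13 read along the gene's strand, and the letters AAGATGGC contain an ATG followed by G, as many translation starts do. A match is a description of the letters and not a measured binding site.

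**Figure D1:**
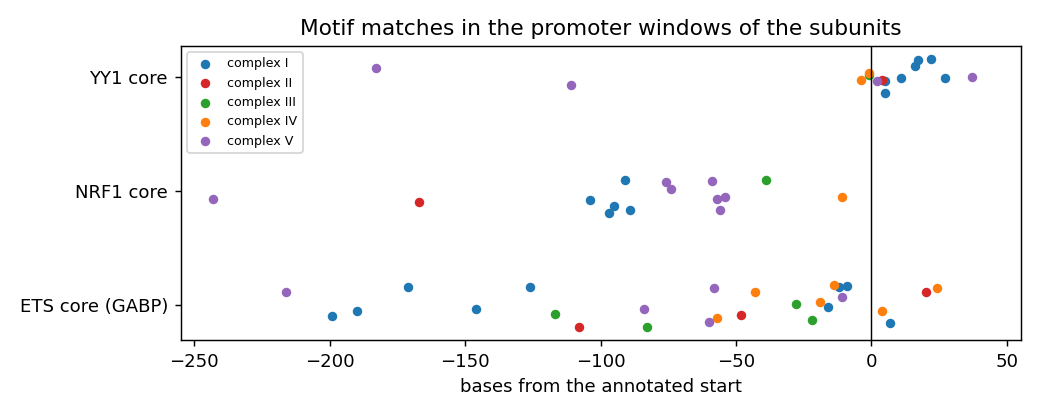
Position of each motif match (points, coloured by complex) in the promoter windows of the members, with the distance of the first base of the match from the annotated start in bases on the x axis. The YY1 letters gather at the start, where 13 of 15 matches lie within 60 bases, while 17 of 27 ETS matches and 6 of 15 NRF1 matches do.

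For each complex the tested member was taken with the most different motifs from 150 bases before to 30 bases after the start. Ties went to the highest mean FPKM. The promoter stretches of the members taken are shown, so that the arrangement can be read. Each is written 5′ to 3′ along the gene, from GRCr8, with the motif letters in capitals. The stretches are chr7:115750288-115750467 (minus strand) for Ndufa6, chr13:86097996-86098175 (minus) for Sdhc, chr8:118468073-118468252 (plus) for Uqcrc1, chr1:213833594-213833773 (minus) for Cox8a and chr11:44657454-44657633 (minus) for Atp5po.
Ndufa6: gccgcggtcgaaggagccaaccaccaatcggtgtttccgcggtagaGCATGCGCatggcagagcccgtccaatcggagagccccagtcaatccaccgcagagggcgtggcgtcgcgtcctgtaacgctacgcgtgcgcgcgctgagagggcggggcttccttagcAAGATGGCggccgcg
Sdhc: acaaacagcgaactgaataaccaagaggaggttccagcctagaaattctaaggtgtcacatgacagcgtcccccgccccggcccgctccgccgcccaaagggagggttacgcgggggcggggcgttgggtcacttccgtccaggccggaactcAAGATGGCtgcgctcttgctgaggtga
Uqcrc1: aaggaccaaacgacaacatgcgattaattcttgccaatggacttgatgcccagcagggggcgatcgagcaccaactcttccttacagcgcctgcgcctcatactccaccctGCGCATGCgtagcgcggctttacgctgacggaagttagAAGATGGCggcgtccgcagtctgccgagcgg
Cox8a: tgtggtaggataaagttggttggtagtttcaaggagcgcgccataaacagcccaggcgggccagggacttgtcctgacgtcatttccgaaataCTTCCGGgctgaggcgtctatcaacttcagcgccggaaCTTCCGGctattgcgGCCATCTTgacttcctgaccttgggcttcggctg
Atp5po: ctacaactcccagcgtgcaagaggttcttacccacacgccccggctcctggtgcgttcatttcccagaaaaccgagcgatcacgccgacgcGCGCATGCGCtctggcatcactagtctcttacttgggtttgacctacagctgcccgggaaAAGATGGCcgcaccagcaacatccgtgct
The Ndufa6, Uqcrc1 and Atp5po stretches each hold an NRF1 match upstream of a YY1 match at the start. In Atp5po the capitals GCGCATGCGC are a palindrome that holds the NRF1 letters on both strands. In Cox8a both ETS matches and the YY1 match are on the opposite strand, and Sdhc holds the YY1 letters alone.

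As a group the subunits were expressed in every library and differed little between soft and stiff gel. Of the 88 rows, 81 reached a mean of 1 FPKM and were tested, and none passed a Benjamini-Hochberg adjusted p of 0.05 with limma, where 1.43% of the 12713 tested genes did. Counting unadjusted p under 0.05, 11 members passed, where 15.4% of all tested genes did. Of these, 10 members (12.3% of those tested) were higher in stiff gel, near the 8.46% of all genes, and 1 (1.23%) was lower, against 6.95%. These counts moved with the settings. They were 3 higher and 2 lower without stiff replicate 3, 5 and 2 at equal FPKM sums and 4 and 1 with voom on recovered reads. With the replicate block they were 17 and 1, and with library weights 20 and 4. The matching shares over all tested genes were not computed for these settings, so these counts have no background to be read against. The 3 stiff libraries all lay above the 3 soft ones for 12 members, 14.8% of those tested, against 11.7% of all genes, and all lay below for 2 members, 2.47%, against 10.9%. For 73 of the 81 tested members the 95% interval of the log2 fold change lay within 0.5 of 0 in both directions.

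The log2 fold changes were small but leaned to one side. They were above 0 for 73 of 81 members, against 50.4% of all tested genes, with a median of 0.081 against 0.0013. The median was 0.072 in complex I (33 of 35 above 0), 0.020 in complex II (3 of 4), 0.061 in complex III (8 of 10), 0.11 in complex IV (14 of 16) and 0.12 in complex V (15 of 16). With every library scaled to the same FPKM sum, 56 members were above 0 with a median of 0.032, against 38.6% of all genes and a median of -0.042. Without stiff replicate 3, 56 members were above 0 and the median was 0.051, against 50.5% of all genes and a median of 0.0015. Among all genes, scaling to the same FPKM sum moved the share of called genes that were higher in stiff gel from 70.3% to 56.4%. Tested members were short, with a median gene length of 705 bases against 2190 for all tested genes. With each library's trend with gene length removed, 60 members were above 0 (median 0.044), against 49.7% of all genes (median -0.00075). After quantile normalization 57 were (median 0.042), against 49.5% (median -0.0019). The part of gene length in the lean beyond that fit was not tested.

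**Figure D2:**
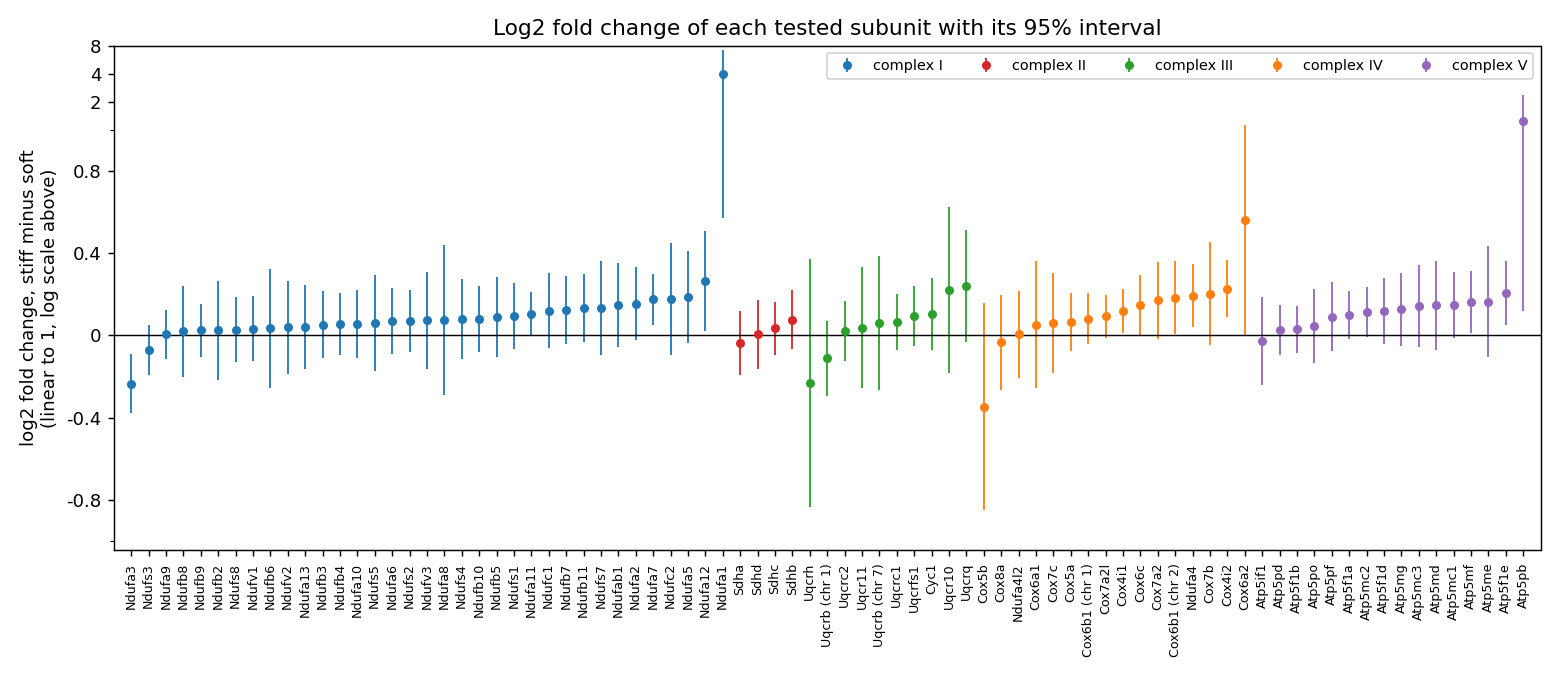
Log2 fold change (stiff minus soft, y axis, linear up to 1 and on a log scale above) of each tested subunit, ordered within its complex, with its 95% interval from limma as a bar. Most points lie between 0 and 0.2, while Ndufa1 and Atp5pb, whose libraries are unequal, lie at 3.94 and 1.25.

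The lean was largest in a single library. Stiff replicate 3 held the highest value of 54 of the 81 tested members and the lowest of none, and soft replicate 1 held the lowest of 28 (34.6%). Over all tested genes, stiff replicate 3 held the highest value for 17.8% and soft replicate 1 the lowest for 25.9%. The median member stood 0.12 above its own mean on the log2 scale in stiff replicate 3, against 0.020 in stiff replicate 1 and -0.0081 in stiff replicate 2, and between -0.048 and -0.035 in the soft libraries. At equal FPKM sums stiff replicate 3 was still highest for 35 members and lowest for 1. Stiff replicate 3 also had the largest FPKM sum, 478304, and its part in the lean beyond the fit without it was not tested.

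**Figure D3:**
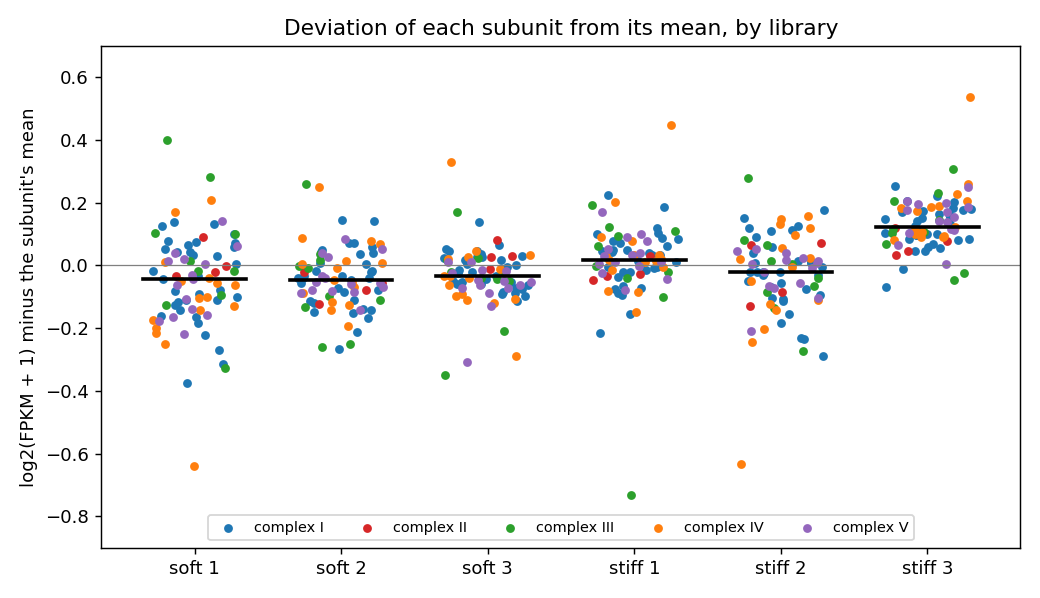
Deviation of each tested subunit from its own mean over the 6 libraries (y axis, log2(FPKM + 1); points coloured by complex, black bars the medians) in each library (x axis), without Ndufa1 and Atp5pb, which lie outside the range. The points of stiff replicate 3 sit above 0 almost throughout, and the other 5 libraries overlap.

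Summed over its members, complex V was at 2312, 2354 and 2324 FPKM in soft replicates 1 to 3 and at 2474, 2375 and 2659 FPKM in stiff replicates 1 to 3. This was the only complex whose stiff libraries all lay above the soft ones, with stiff replicate 2 close to the soft range, and as a share of all FPKM the groups overlapped (0.511% ± 0.0037 in soft and 0.531% ± 0.025 in stiff gel, SD, n = 3 each). Complex IV was at 2073, 2085 and 2103 FPKM in soft gel and at 2155, 2054 and 2365 FPKM in stiff gel, so stiff replicate 2 lay below every soft library. Complex I was at 1999, 1870 and 1885 FPKM in soft gel and at 2099, 1995 and 2201 FPKM in stiff gel, and without Ndufa1 soft gel was at 1886, 1869 and 1883 FPKM and stiff gel at 1962, 1879 and 2092 FPKM. Complex III and complex II did not separate the groups, with 629.1 ± 30.6 and 648.6 ± 42.7 FPKM, and 252.1 ± 9.37 and 256.2 ± 8.20 FPKM, in soft and stiff gel. The 13 mRNAs of the mitochondrial genome, which encode the partner subunits, summed to 19208, 28067 and 26846 FPKM in soft gel and to 25697, 30184 and 27802 FPKM in stiff gel. All 13 had a log2 fold change above 0, against 50.4% of all tested genes, with a median of 0.17 as deposited and 0.12 at equal FPKM sums. Soft replicate 1 was the lowest library for 11 of them, against 25.9% of all tested genes. None of the 13 passed the test, and the ratio of the group means of their sum was 1.13 with soft replicate 1 and 1.02 without it.

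**Figure D4:**
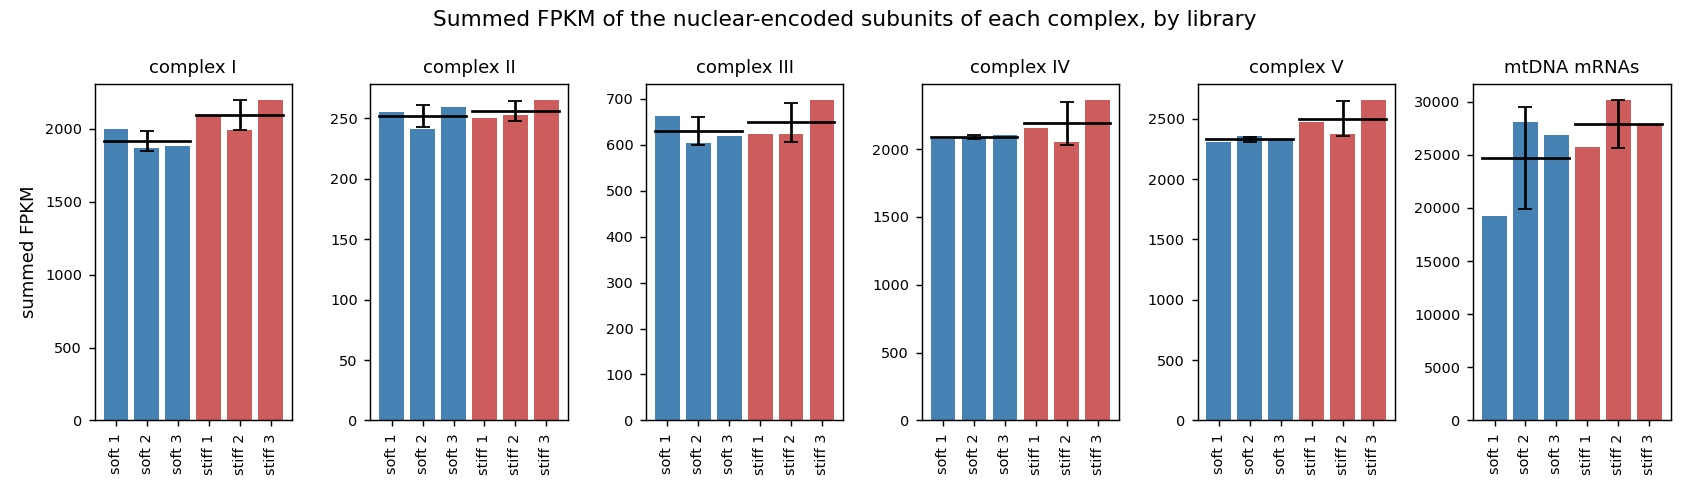
Summed FPKM (y axes, each from 0) of the nuclear-encoded subunits of complexes I to V and of the 13 mitochondrial mRNAs, per library, blue for soft and red for stiff, with the group mean as a line and the SD as a bar. Stiff replicate 3 is the highest library in all 5 nuclear panels, and soft replicate 1 is the lowest in the mitochondrial panel.

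Complex I, NADH dehydrogenase, had 35 tested rows, from 6.67 to 128.6 mean FPKM with a median of 51.9. No row named Ndufs6 met the rule. LOC679739, a row described as Fe-S protein 6 of this complex, was at 0.373, 0.382 and 3.27 FPKM in soft gel and 0.105, 2.03 and 4.02 FPKM in stiff gel. The 7 core subunits of complex I in the set include those that carry the flavin and the iron-sulfur clusters or frame the quinone site. They lay between 27.3 and 70.6 FPKM, and 6 of the 7 were above 0 with log2 fold changes from -0.071 to 0.13. The 4 most abundant members were Ndufa13, Ndufb4, Ndufa11 and Ndufb8, all accessory subunits. Ndufa13, also known as GRIM-19, was at 135.2, 124.0 and 120.7 FPKM in soft gel and at 133.8, 115.1 and 142.8 FPKM in stiff gel, so the groups overlapped. Ndufb4 (log2 fold change 0.055, SE 0.064) and Ndufb8 (0.019, SE 0.094) overlapped as well. Ndufa11 was at 98.2, 97.2 and 97.1 FPKM in soft gel and at 107.5, 102.1 and 105.2 FPKM in stiff gel, which did not overlap, with a log2 fold change of 0.10 and a limma adjusted p of 0.34.

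Ndufa3, a small accessory subunit of the membrane arm, had the smallest adjusted p of all members and went against the lean. It was at 43.6, 45.8 and 45.6 FPKM in soft gel and at 35.5, 39.5 and 39.4 FPKM in stiff gel. The stiff libraries all lay below the soft ones, with a log2 fold change of -0.24 (SE 0.061, 95% interval -0.38 to -0.092, limma adjusted p = 0.13). The row (ENSRNOG00000060293) lies on chromosome 1 from 64172540 to 64175099 on the minus strand, in the table's coordinates, for which it states no build, and is 276 bases long with 1118 recovered reads in all. Ndufs3, a core subunit, was the other member whose stiff libraries all lay lower, at 30.5, 31.2 and 31.8 FPKM in soft gel and 28.8, 29.8 and 30.1 FPKM in stiff gel, a log2 fold change of -0.071 (adjusted p = 0.56). Ndufa9, which sits near the quinone site, showed the least difference of the complex (0.0046, SE 0.050).

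The largest values of complex I on the other side were those of Ndufa1, Ndufa12 and Ndufa5. Ndufa12 was the least abundant tested member of the complex, at 5.33, 5.86 and 6.77 FPKM in soft gel and 6.59, 7.62 and 7.88 FPKM in stiff gel, where 1 stiff library lay inside the soft range (log2 fold change 0.26, SE 0.10, adjusted p = 0.29). Ndufa5 was at 57.8, 75.8 and 70.3 FPKM in soft gel and 76.5, 76.9 and 77.5 FPKM in stiff gel, where soft replicate 1 was low and the stiff libraries lay just above the rest (0.19, adjusted p = 0.41).

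Ndufa1, an accessory subunit encoded on the X chromosome, differed within the soft group far more than any other member. It was at 113.0 FPKM in soft replicate 1 but at 0.573 and 1.73 FPKM in soft replicates 2 and 3, and at 137.1, 115.9 and 108.5 FPKM in the stiff libraries. Soft replicate 1 thus lay with the stiff libraries, and the other 2 soft libraries lay far below every other library. The log2 fold change was 3.94 (SE 1.44) with an adjusted p of 0.26. Without soft replicate 1 it was 5.87 with a limma adjusted p of 0.00107, the only call of a member when 1 library was left out. With library weights it was 5.31 with an adjusted p of 0.017, and Ndufa3 was called too (-0.28, adjusted p = 0.027). The row is 213 bases long, and a second row of the same description, LOC108348144, was at 0.118 FPKM or less in every library, so that row was not high where Ndufa1 was low.

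**Figure D5:**
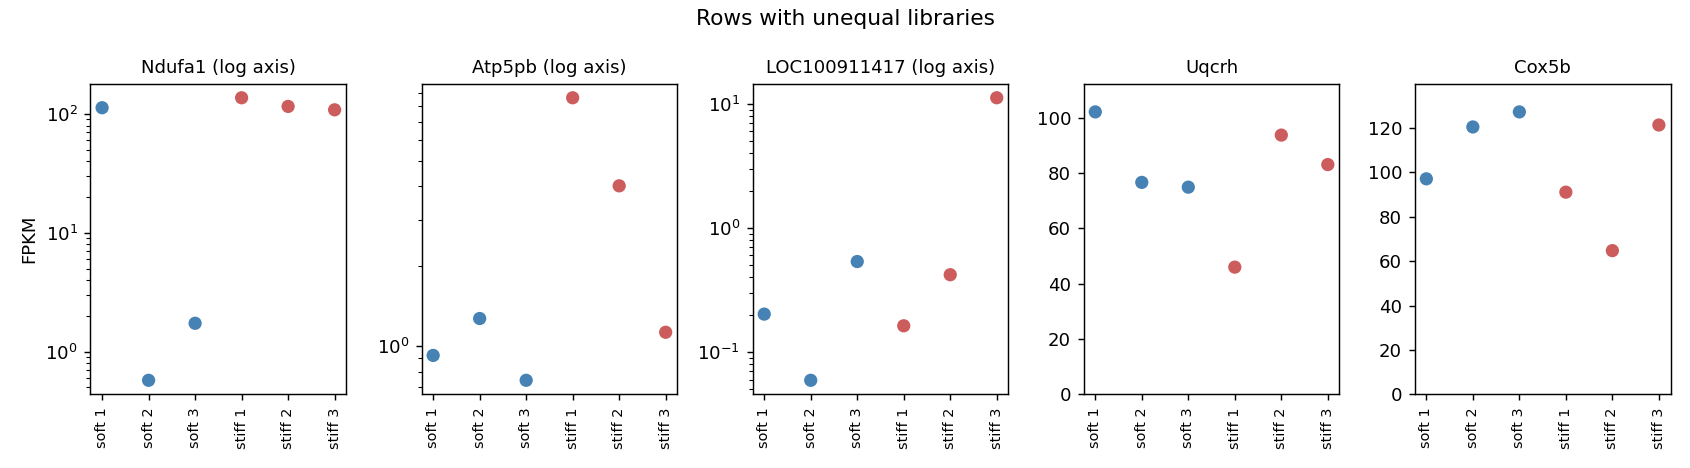
FPKM per library (points, blue for soft and red for stiff) of Ndufa1, Atp5pb and the Atp5pb copy row LOC100911417, on log axes, and of Uqcrh and Cox5b, on axes from 0. Ndufa1 is low in 2 soft libraries, Atp5pb and its copy are high in different stiff libraries, and Uqcrh and Cox5b each have 1 stiff library that stands below the rest.

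Complex II, succinate dehydrogenase, belongs to both the respiratory chain and the citric acid cycle, and it is the only complex encoded wholly in the nucleus. Its 4 subunits were close in level and showed the smallest differences of any complex. Sdha, the flavoprotein that oxidizes succinate, was at 62.8, 57.99 and 58.4 FPKM in soft gel and 60.1, 53.7 and 60.9 FPKM in stiff gel. Sdhb, the iron-sulfur subunit, was at 62.6, 58.3 and 65.0 FPKM and at 62.0, 66.8 and 67.1 FPKM. The membrane anchors Sdhc and Sdhd had mean levels of 85.1 and 46.4 FPKM. In all 4 the groups overlapped, and the log2 fold changes were -0.037 (95% interval -0.19 to 0.12) for Sdha, 0.076 (-0.069 to 0.22) for Sdhb, 0.034 (-0.094 to 0.16) for Sdhc and 0.0052 (-0.16 to 0.17) for Sdhd. The signs of Sdhc and Sdhd turned at equal FPKM sums.

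Complex III, the cytochrome bc1 complex, had 10 tested rows from 16.6 to 128.0 FPKM, and in every one of them the groups overlapped. The electron carriers Cyc1 (cytochrome c1) and Uqcrfs1 (the Rieske iron-sulfur protein) had log2 fold changes of 0.10 (SE 0.074) and 0.095 (SE 0.062). The core proteins Uqcrc1 and Uqcrc2 stood at 75.2 and 42.9 FPKM with 0.064 (SE 0.057) and 0.022 (SE 0.062). Among the small subunits, Uqcr11 was the most abundant at 128.0 FPKM (0.037, SE 0.13), and Uqcrq (0.24, SE 0.12) and Uqcr10 (0.22, SE 0.17) had the largest values. Uqcrq was at 67.7, 52.9 and 54.4 FPKM in soft gel and 72.3, 60.3 and 74.2 FPKM in stiff gel, with soft replicate 1 inside the stiff range.

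Uqcrh, the hinge protein that helps cytochrome c dock, varied most in complex III. It was at 102.2, 76.7 and 74.9 FPKM in soft gel and at 46.0, 93.8 and 83.1 FPKM in stiff gel. Stiff replicate 1 lay below the other 5 libraries, and the log2 fold change of -0.23 (SE 0.26, adjusted p = 0.72) became 0.075 in the fit that left it out. Uqcrb, which lines the ubiquinone pocket, has 2 rows that may share reads. The row on chromosome 1, where RefSeq lists the pseudogene Uqcrb-ps1 in GRCr8, was at 50.5, 51.8 and 57.7 FPKM in soft gel and 47.6, 46.5 and 53.7 FPKM in stiff gel (log2 fold change -0.11), while the row on chromosome 7 was at 12.9, 19.9 and 16.2 FPKM and at 17.8, 16.5 and 16.1 FPKM (0.058). Their sum averaged 69.7 ± 5.50 FPKM in soft gel and 66.1 ± 3.48 in stiff (SD, n = 3 each), so the total did not separate the groups either.

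Complex IV, cytochrome c oxidase, hands electrons to oxygen, and its nuclear subunits come in isoforms that differ between tissues. Of its 22 rows 16 were tested. Cox4i1, the common form of the subunit that regulates the enzyme, was the most abundant, at 316.4, 315.1 and 305.3 FPKM in soft gel and 328.5, 338.6 and 350.6 FPKM in stiff gel. The stiff libraries all lay above the soft ones by a small margin (log2 fold change 0.12, SE 0.046, adjusted p = 0.29). Cox4i2, the form known from lung and from low oxygen, was at 45.1, 44.3 and 44.9 FPKM in soft gel and 49.6, 51.9 and 56.1 FPKM in stiff gel. Its groups were parted as well, with a log2 fold change of 0.23 (SE 0.059, 95% interval 0.087 to 0.36, limma adjusted p = 0.14), and it stood at 0.18 at equal FPKM sums. As a share of Cox4i1 it was 14.2%, 14.0% and 14.7% in soft gel and 15.1%, 15.3% and 16.0% in stiff gel. The row of Cox4i2 (ENSRNOG00000007827) lies on chromosome 3 from 148234193 to 148245416 on the plus strand, in the table's own coordinates.

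Ndufa4 and its relative Ndufa4l2, which is known as a target of the hypoxia response, differed from each other. Ndufa4 was at 71.0, 75.2 and 83.2 FPKM in soft gel and 86.2, 88.7 and 87.2 FPKM in stiff gel, which did not overlap (log2 fold change 0.19, SE 0.066, adjusted p = 0.23), though the row overlaps Phf14. Ndufa4l2 was at 55.6, 47.0 and 45.7 FPKM and at 49.9, 45.6 and 53.0 FPKM, which did (0.0038, SE 0.090). The ratio of Ndufa4l2 to Ndufa4 was 65.2% ± 11.9 in soft and 56.7% ± 4.79 in stiff gel (SD, n = 3 each), with overlapping libraries. The difference between the pair was not tested.

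The forms of complex IV subunits that are typical of heart and skeletal muscle were near or at 0. Cox6a1, the common form, averaged 315.9 FPKM (log2 fold change 0.052, SE 0.13) in a row that overlaps AABR07072302.1, and Cox6a2, the muscle form, was at 1.00, 2.31 and 1.55 FPKM in soft gel and 3.25, 1.82 and 3.52 FPKM in stiff gel, where 1 stiff library lay inside the soft range (0.56, SE 0.24, adjusted p = 0.33). Cox6a2 thus amounted to between 0.277% and 0.984% of Cox6a1 in any library. Cox7a1, the muscle form beside Cox7a2, did not pass 0.399 FPKM, while Cox7a2 averaged 112.9 FPKM (0.17, SE 0.080) and Cox7a2l, a supercomplex assembly factor of the same family, 103.9 FPKM (0.092, SE 0.045). Cox8b, the muscle form beside Cox8a, and the testis forms Cox8c and Cox7b2 were at 0 in all 6 libraries, as were Cox6c-ps1 and Ndufa10l1. A count of 0 allows up to 3 reads by counting error only, which is up to 0.839 FPKM for Cox7b2 (240 bases), 0.631 for Cox8b (319 bases), 0.366 for Cox8c (551 bases), 0.234 for Cox6c-ps1 and 0.104 for Ndufa10l1. Cox6b2, the testis form, reached at most 0.654 FPKM.

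Of the other abundant complex IV subunits, Cox8a averaged 284.2 FPKM (log2 fold change -0.035, SE 0.099) and Cox6c 194.0 FPKM (0.15, SE 0.063). The stiff libraries of Cox6c all lay above the soft ones, at 193.0, 212.3 and 206.0 FPKM against 171.3, 192.5 and 188.9 FPKM, with an adjusted p of 0.34. Cox7b had a value of 0.20 (SE 0.11) with overlapping groups. Cox5b, a zinc-binding subunit, had the lowest value of the complex. It was at 97.0, 120.3 and 127.1 FPKM in soft gel and 91.0, 64.7 and 121.2 FPKM in stiff gel, where stiff replicate 2 was the low library (-0.35, SE 0.21, adjusted p = 0.49). Cox6b1, which bridges the dimer on the outer face, has a row on chromosome 1 averaging 131.6 FPKM (0.081, SE 0.052) and a row without introns on chromosome 2 averaging 35.8 FPKM (0.18, SE 0.076), which may share reads. Summed, they were at 158.1, 165.4 and 160.5 FPKM in soft gel and 173.7, 165.5 and 181.2 FPKM in stiff gel.

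Complex V, the ATP synthase, held the most abundant members, from 2.79 to 390.1 FPKM with a median of 143.5. Its F1 part was measured through Atp5f1b, Atp5f1a, Atp5f1e and Atp5f1d, all 4 of them above 0. The gamma subunit of F1, Atp5f1c, had no row that met the rule, so F1 is not covered in full. Atp5f1b, the catalytic beta subunit, was at 394.1, 380.9 and 383.5 FPKM in soft gel and 398.5, 375.4 and 408.5 FPKM in stiff gel, so the groups overlapped (log2 fold change 0.029, 95% interval -0.087 to 0.14). Atp5f1a, its alpha partner, was at 216.9, 203.7 and 205.4 FPKM and at 220.9, 218.0 and 232.0 FPKM, which did not overlap (0.10, adjusted p = 0.40). Atp5f1e, the small epsilon subunit, had the largest log2 fold change of these 4, at 140.3, 143.7 and 160.1 FPKM in soft gel and 167.7, 164.8 and 179.5 FPKM in stiff gel. Its stiff libraries all lay above the soft ones (0.21, SE 0.066, limma adjusted p = 0.21).

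The membrane ring of complex V is built of subunit c, and 3 genes encode the same mature protein with different import signals. Atp5mc2 was the main source, at 267.2, 264.7 and 261.7 FPKM in soft gel and 277.5, 278.6 and 303.2 FPKM in stiff gel, which did not overlap (log2 fold change 0.11, SE 0.051, adjusted p = 0.35). Atp5mc3 (0.14, SE 0.085) and Atp5mc1 (0.15, SE 0.068) averaged 147.1 and 101.2 FPKM. Summed, the 3 genes were at 494.9, 503.3 and 501.7 FPKM in soft gel and 533.5, 522.4 and 586.8 FPKM in stiff gel. Their shares stayed close, with Atp5mc2 at 52.9% ± 0.959 in soft and 52.3% ± 0.873 in stiff gel, Atp5mc3 at 27.9% ± 1.25 and 28.2% ± 1.53, and Atp5mc1 at 19.2% ± 0.296 and 19.5% ± 1.61 (SD, n = 3 each).

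Of the other named parts of complex V, Atp5md, a small membrane subunit, averaged 218.7 FPKM (log2 fold change 0.15, SE 0.092), Atp5me 74.4 FPKM (0.16, SE 0.12) and Atp5pd, of the peripheral stalk, 128.5 FPKM (0.025, SE 0.052). Atp5if1, the inhibitor that blocks ATP hydrolysis when the gradient fails, was at 141.5, 148.1 and 133.6 FPKM in soft gel and 144.8, 120.5 and 151.4 FPKM in stiff gel (-0.028, SE 0.090), and its ratio to Atp5f1b was 0.365 ± 0.021 and 0.352 ± 0.027 (SD, n = 3 each).

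Atp5pb, the b subunit of the peripheral stalk, was far below its partners and is uncertain. It was at 0.924, 1.27 and 0.745 FPKM in soft gel and at 8.62, 4.02 and 1.13 FPKM in stiff gel, with stiff replicate 3 inside the soft range (log2 fold change 1.25, SE 0.48, adjusted p = 0.29). A second row described as the same subunit, LOC100911417, lies on the same chromosome 2 with the same length of 2063 bases, and it was at 11.2 FPKM in stiff replicate 3 and at 0.536 FPKM or less in the other libraries. The sum of both rows was 1.13, 1.33 and 1.28 FPKM in soft gel and 8.79, 4.44 and 12.3 FPKM in stiff gel. The groups of the sum did not overlap, a comparison made after the values were seen and given with no test.

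Beside the subunits, 125 genes of 11 lists around the chain were matched, 123 were tested, and none passed the adjusted threshold, with 10 higher (8.13%) and 3 lower (2.44%) at an unadjusted limma p under 0.05, against 8.46% and 6.95% of all tested genes. Of the 48 tested assembly factors, which build the complexes but do not stay in them, 32 were above 0 with a median log2 fold change of 0.045. Among them Timmdc1 (-0.012) and Ndufaf8 (0.18) serve complex I, Sdhaf2 (0.11) and Sdhaf4 (0.067) complex II, Uqcc2 (0.0049) and Uqcc3 (0.065) complex III, Cox14 (0.063) and the copper chaperone Cox17 (-0.0066) complex IV, and Tmem242 (0.015) and Atpaf2 (-0.023) complex V. The 10 carriers and exchangers had the highest median, 0.12, with 9 above 0. In this list 4 of the 10 had an unadjusted limma p under 0.05, all of them higher in stiff gel, against 8.46% of all tested genes. Among the 10, the ADP/ATP carrier Slc25a4 was at 272.3, 256.1 and 259.3 FPKM in soft gel and 297.0, 269.6 and 301.0 FPKM in stiff gel (adjusted p = 0.32). The phosphate carrier Slc25a3 was at 196.8, 210.3 and 204.0 FPKM and at 217.7, 237.2 and 225.8 FPKM (adjusted p = 0.23).

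The remaining lists had medians nearer 0. Coenzyme Q synthesis had 8 of 13 genes above 0 (median 0.015), with Coq9 at -0.013 and Coq2 at 0.043. The other dehydrogenases that feed coenzyme Q had 5 of 6 above 0 (0.071), with the electron transfer flavoproteins Etfa at 0.079 and Etfb at -0.020. In that list Sqor, which oxidizes sulfide and is named after its values were seen, was at 12.4, 14.4 and 13.6 FPKM in soft gel and 17.5, 17.2 and 17.4 FPKM in stiff gel. Its groups did not overlap, with a log2 fold change of 0.34 (SE 0.068) that missed the threshold (limma adjusted p = 0.064). The citric acid cycle and pyruvate dehydrogenase had 10 of 16 above 0 (0.056), with Mdh2 at 0.14 and citrate synthase, Cs, at 0.010. Regulators of mitochondrial biogenesis had 10 of 17 above 0 (0.022), with the nuclear receptor Esrra at -0.12 and Yy1 at 0.011. Genes of cristae and supercomplexes had 8 of 13 above 0 (0.035), with Micos10 at 0.15 and the prohibitin Phb2 at 0.014. Over all 123 genes 82 (66.7%) were above 0 with a median of 0.049, against 50.4% and 0.0013 for all tested genes. At equal FPKM sums 65 (52.8%) were above 0 with a median of 0.0053, against 38.6% and -0.042.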

How the data were processed

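The data were polyA RNA libraries, 3 per gel stiffness. FPKM per gene were computed by the authors before they were deposited. Tools in the submitters' processing notes were Bowtie (0.12.9), Cufflinks (2.1.1) and HTSeq, with mm10 and GRCm38 as builds, although identifiers in the table are rat Ensembl ones and no build stands in it. How strand and multiply mapped reads were treated is not stated, so rows with copies or overlapping neighbours are uncertain.

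The product of FPKM and length was a whole number of steps (within 0.0001) for 100% of values, which gave back the reads used for depth and voom. The comparison of the gels used limma 3.58.1 (R 4.3.3) on log2(FPKM + 1), a scale that understates the change of low genes, over the 12713 genes averaging 1 FPKM or more, with an intensity trend in the variance; tests were two-sided, and p-values were adjusted after Benjamini and Hochberg with a threshold of 0.05. An exact two-sided permutation test of 3 against 3 cannot go below 0.1, so none was used. The script was tested on simulated data. Libraries of a group differed by more than sampling noise (chi-square per degree of freedom of at least 3.76).

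Members and lists were chosen with earlier results of these data known. Named were all members of complexes II and III, in the other complexes the 4 most abundant, the 3 largest and 3 smallest log2 fold changes and any called, rows under the level filter, isoform pairs, and from each list up to 4 called or the 2 most abundant genes. Core complex I and F1 groups were added after the values were seen. Alternatives changed the pseudocount, level filter, scaling, length trend, variance model, weights, threshold and tested biotypes, added the replicate number as a block, used voom, and left out each library in turn.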

Additional observations from a re-analysis of the deposited data

How the results depend on the processing

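No member was called under the alternatives other than library weights (2 members) and leaving out 1 library (0 to 1, the 1 being Ndufa1 without soft replicate 1). The count of all called genes, 182, became 92 without a level filter, 112 without a variance trend, 685 with library weights, 318 with voom on recovered reads and 382 at an adjusted p of 0.1, and lay between 26 (without stiff replicate 1) and 159 (without soft replicate 1) when 1 library was left out. The cause was not tested. With the replicate block 105 genes and 0 members were called. Deviations from the group mean had r across genes of 0.0552, 0.116 and -0.0785 between same-numbered libraries. Between differently numbered libraries r lay between -0.184 and 0.137. With 3 libraries per group, these values cannot settle whether the numbers pair the libraries. Members above 0 numbered between 56 and 75 over the fits that left out 1 library. The calls of Cd68, Cd53 and Adgre1 were lost in several fits, all 3 of them without a level filter, with the replicate block and in 5 of the 6 fits that left out 1 library. Adgre1 was also lost without soft replicate 1 (limma adjusted p = 0.061), at equal FPKM sums (0.075), with that sum taken outside the mitochondrial genome (0.074) and after quantile normalization (0.087). Without a variance trend Cd68 (0.053) and Adgre1 (0.096) were lost. The log2 ratio of summed FPKM, stiff over soft, of complex II went from 0.023 to -0.026 at equal FPKM sums, and that of complex III from 0.044 to -0.0064.

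Among single genes, 16 of the 49 named members and 14 of the 29 named list genes turned sign in at least 1 of the 19 alternative fits. With library weights, the sign turned for Sdhc (-0.0043), Sdha (0.0065), Sdhd (-0.043), Uqcrc2 (-0.016), Atp5if1 (0.042), Timmdc1 (0.025), Etfb (0.024), Col1a2 (0.27). With every library scaled to the same FPKM sum, the sign turned for Ndufa13 (-0.0094), Ndufb8 (-0.030), Ndufa9 (-0.044), Sdhc (-0.015), Sdhd (-0.043), Uqcr11 (-0.012), Uqcrc2 (-0.027), Ndufa4l2 (-0.045), Atp5f1b (-0.021), Atp5pd (-0.024), Uqcc2 (-0.043), Tmem242 (-0.033), Coq2 (-0.0042), Cs (-0.039), Yy1 (-0.037), Phb2 (-0.035). With the sum taken outside the mitochondrial genome, the sign turned for Ndufa13 (-0.0021), Ndufb8 (-0.023), Ndufa9 (-0.037), Sdhc (-0.0077), Sdhd (-0.036), Uqcr11 (-0.0044), Uqcrc2 (-0.019), Ndufa4l2 (-0.037), Atp5f1b (-0.013), Atp5pd (-0.017), Uqcc2 (-0.036), Tmem242 (-0.026), Cs (-0.031), Yy1 (-0.030), Phb2 (-0.028). With the length trend removed, the sign turned for Ndufb8 (-0.028), Ndufa9 (-0.033), Sdhc (-0.0074), Sdhd (-0.034), Uqcr11 (-0.0039), Ndufa4l2 (-0.042), Atp5pd (-0.022), Uqcc2 (-0.042), Tmem242 (-0.033), Cs (-0.021), Yy1 (-0.018), Phb2 (-0.021). After quantile normalization, the sign turned for Ndufa13 (-0.014), Ndufb8 (-0.030), Ndufa9 (-0.025), Sdhc (-0.021), Sdhd (-0.020), Uqcr11 (-0.020), Uqcrc2 (-0.0015), Cox6a1 (-0.015), Ndufa4l2 (-0.024), Atp5f1b (-0.053), Atp5pd (-0.030), Uqcc2 (-0.0076), Cs (-0.032), Yy1 (-0.0096), Phb2 (-0.044). With voom on recovered reads, the sign turned for Ndufa9 (-0.011), Sdhd (-0.0099), Ndufa4l2 (-0.013), Uqcc2 (-0.012), Cs (-0.0058), Yy1 (-0.0055), Phb2 (-0.0022). Over the fits that left out 1 library, these crossed 0: Sdhd (-0.053 to 0.049), Uqcrc2 (-0.020 to 0.051), Uqcrb (chromosome 7) (-0.090 to 0.20), Timmdc1 (-0.043 to 0.040), Cox17 (-0.066 to 0.046), Atpaf2 (-0.063 to 0.022), Etfb (-0.074 to 0.039), Col1a2 (-0.46 to 0.21), Ndufb8 (-0.046 to 0.12), Ndufa9 (-0.018 to 0.022), Uqcr11 (-0.057 to 0.18), Cox6a1 (-0.031 to 0.17), Ndufa4l2 (-0.048 to 0.089), Atp5if1 (-0.093 to 0.070), Atp5pd (-0.0090 to 0.062), Uqcc2 (-0.051 to 0.074), Yy1 (-0.028 to 0.064), Phb2 (-0.025 to 0.057), Uqcc3 (-0.028 to 0.12), Tmem242 (-0.039 to 0.049), Uqcrh (-0.43 to 0.075), Sdhaf4 (-0.053 to 0.19), Coq9 (-0.037 to 0.011), Sdha (-0.069 to 0.019), Cox8a (-0.13 to 0.079), Cs (-0.0017 to 0.021), Ndufa13 (-0.027 to 0.13). Depth limits short rows under the level filter most, since 3 reads of a 1 kb gene are between 0.179 and 0.201 FPKM and more in a shorter one.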

Other observations

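Besides Ndufa1, 9 other rows of the whole table had log2(FPKM + 1) values that spanned more than 4 between libraries and a highest value above 15 FPKM. This set was chosen after the values were seen and is given with no test. Hprt1, a purine salvage enzyme and a common reference gene, was at 15.4, 25.0 and 0.655 FPKM in soft replicates 1 to 3 and at 0.307, 19.2 and 0.364 FPKM in stiff replicates 1 to 3. Capns1, the small calpain subunit, was at 1.80, 6.28 and 88.7 FPKM in soft gel and 68.8, 78.2 and 1.23 FPKM in stiff gel. Pdcd5 was at 11.4, 28.3 and 28.5 FPKM and at 0.313, 0.962 and 30.8 FPKM. Selenow, a small selenoprotein, was at 179.6, 66.5 and 119.9 FPKM and at 5.78, 57.2 and 92.2 FPKM. The low and high libraries differed from gene to gene. The others were Tsen34l1, LOC103692169, LOC100911186, LOC100910418 and a row without a name.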
